A study of Mus musculus with 2 samples.

Results

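The DNA replication machinery was described here as a fixed list of 52 genes, chosen by symbol from the count table of TUBO cells. All 52 symbols were found among the 31017 genes of the table. TUBO is a mouse mammary carcinoma line whose source was a mammary tumour in a BALB/c mouse carrying the rat Her2/neu transgene under the mouse mammary tumour virus promoter. The cells were untreated and grew flat on plastic in medium with serum. There was 1 group with 2 libraries of polyadenylated RNA from this line (replicates 1 and 2), so levels were measured and no condition was compared with another. Whether the replicates were separate cultures is not stated, so differences between them may be technical.

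DNA replication starts at origins that are marked by the origin recognition complex (ORC). Cdc6 and Cdt1 load the MCM helicase there in an inactive form, and geminin blocks Cdt1 so that each origin is licensed once per cycle. In S phase Cdc45 and the GINS complex join the helicase, polymerase alpha with its primase starts new strands, and polymerases delta and epsilon extend them on the PCNA clamp. RPA covers single-stranded DNA, ribonucleotide reductase and thymidylate enzymes supply nucleotides, and CAF-1 and Uhrf1 restore chromatin behind the fork. E2F transcription factors bind short sites in the promoters of many of these genes and switch them on as cells pass from G1 into S phase.

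The libraries held 35453278 counts (replicate 1) and 34098259 counts (replicate 2), of which 169032 and 156007 fell on the listed genes. These were 0.477% (95% Wilson interval 0.475% to 0.479%) and 0.458% (0.455% to 0.460%) of the counts. Levels are given in CPM, counts relative to library size after scaling with TMM factors, with mean ± SD over both libraries (n = 2). A gene with 0 counts could still lie at up to 0.0842 CPM (replicate 1) or 0.0885 CPM (replicate 2). These intervals and limits cover counting error only. The epithelial markers Epcam, Krt8, Krt18 and Cdh1 lay between 684 and 1217 CPM. Of 14 markers of fibroblasts, endothelium and leukocytes, none reached 1 CPM in both libraries and 10 had no count in either.

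The promoters of the MCM helicase genes are shown here because these genes lay close together in level, as described further on. The sequences are those of RefSeq (GRCm38.p6, reference strain C57BL/6J), not of TUBO cells, and cover the 250 bases before the RefSeq start on the gene's strand, from 5′ to 3′. Capitals mark E2F motifs, spelled TTTCCCGC, TTTCGCGC, TTTGCCGC or TTTGGCGC on either strand, and CCAAT boxes (CCAAT or ATTGG). No annotated exon of GENCODE M21 lies in these 4 stretches. They are chr6:88898781-88899030 (minus strand) for Mcm2, chr1:20820313-20820562 (minus) for Mcm3, chr8:75109259-75109508 (plus) for Mcm5 and chr1:128359706-128359955 (minus) for Mcm6.
Mcm2: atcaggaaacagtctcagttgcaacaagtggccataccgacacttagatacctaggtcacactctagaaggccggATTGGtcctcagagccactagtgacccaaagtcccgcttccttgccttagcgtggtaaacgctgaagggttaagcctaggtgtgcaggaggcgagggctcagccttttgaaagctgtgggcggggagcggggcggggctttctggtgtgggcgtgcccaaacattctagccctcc
Mcm3: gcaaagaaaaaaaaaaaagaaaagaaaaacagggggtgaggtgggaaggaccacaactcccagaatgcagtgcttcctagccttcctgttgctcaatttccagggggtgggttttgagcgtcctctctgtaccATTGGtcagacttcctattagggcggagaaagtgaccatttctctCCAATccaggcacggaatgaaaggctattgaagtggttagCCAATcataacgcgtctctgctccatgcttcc
Mcm5: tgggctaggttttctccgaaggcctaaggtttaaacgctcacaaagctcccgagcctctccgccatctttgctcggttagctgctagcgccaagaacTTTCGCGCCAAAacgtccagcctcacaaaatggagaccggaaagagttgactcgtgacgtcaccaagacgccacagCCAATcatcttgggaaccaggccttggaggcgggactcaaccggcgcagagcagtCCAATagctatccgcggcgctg
Mcm6: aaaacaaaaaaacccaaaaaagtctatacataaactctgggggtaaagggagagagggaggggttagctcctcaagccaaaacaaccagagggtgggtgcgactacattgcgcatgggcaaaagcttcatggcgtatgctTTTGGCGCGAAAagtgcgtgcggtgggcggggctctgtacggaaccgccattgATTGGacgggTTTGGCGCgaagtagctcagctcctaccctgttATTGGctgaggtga

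Mcm5 and Mcm6 carried E2F motifs in these stretches and Mcm2 and Mcm3 did not. In both Mcm5 and Mcm6 a pair of motifs overlapped head to head in 12 bases that read TTTCGCGCCAAA in Mcm5 and its reverse complement TTTGGCGCGAAA in Mcm6. This run was looked for after it had been seen. It occurred in the windows of 4 of 27025 genes in the RefSeq promoter table, and the other 2 were Msh3 and Mycn. The windows of that table reach from 250 bases before the start to 50 after it. Mcm3 and Mcm7 also held motifs, just after the start or in a window that overlaps annotated exons.

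In other members the motif is shown within 30 bases of the same strand, with the place of its first base, counted from the start (the first transcribed base is 1). The sites were taken from licensing, initiation, elongation, ligation, chromatin and E2F genes to show how its position and orientation varied.
Orc1, chr4:108579416-108579445, at -27: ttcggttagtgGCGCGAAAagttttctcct
Cdc6, chr11:98908002-98908031, at -138: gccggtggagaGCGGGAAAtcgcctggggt
Cdt1, chr8:122568035-122568064, at 33: gggaactaccttTTTGGCGCcatggcgcaa
Mcm3, chr1:20820275-20820304, at 20: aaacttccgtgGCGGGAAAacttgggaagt
Mcm7, chr5:138171849-138171878, at 17: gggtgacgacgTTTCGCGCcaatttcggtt
Gins3, chr8:95633507-95633536, at -41: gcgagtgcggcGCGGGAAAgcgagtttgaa
Pola1, chrX:93632275-93632304, at -138: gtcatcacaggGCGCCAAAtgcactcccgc
Pole2, chr12:69228162-69228191, at 11: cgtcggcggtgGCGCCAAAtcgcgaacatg
Rfc3, chr5:151651200-151651229, at -10: acgtcgcacgcTTTCGCGCtcGCGGGAAAa
Lig1, chr7:13278841-13278870, at 27: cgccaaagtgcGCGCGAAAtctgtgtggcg
Uhrf1, chr17:56304117-56304146, at -185: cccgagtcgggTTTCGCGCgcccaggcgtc
E2f3, chr13:29986056-29986085, at -11: ttgaaaagccgGCGGGAAAtctgagtttcg

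Of the 52 members, 44 had an entry in the promoter table. The 8 without one were Gmnn, Mcm4, Gins1, Gins2, Gins4, Prim2, Pole and Rfc2. An E2F motif lay in the windows of 18 of the 44 (40.9%, 95% Wilson interval 27.7% to 55.6%). Over the 8997 detected genes in that table the share was 4.95%, and over all 27025 genes it was 2.6%. Among the 5 MCM genes with an entry 4 held it, and Mcm2 did not. Another list of 56 replication genes, given further on, had 45 genes with an entry, of which 11 (24.4%) held the motif. A match is a run of letters and not a measured binding site.

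The other motifs stood closer to the background. A CCAAT box was found in 27 of 44 members (61.4%) and 43.1% of detected genes, and in all 5 MCM genes with an entry. A GC box (GGGCGG or CCGCCC) was found in 35 members (79.5%) and 70.2% of detected genes. The CHR element of late cell cycle genes, searched as TTTGAA or TTTAAA on either strand, was found in 12 members (27.3%) and 22.3% of detected genes. E2F matches can share bases with each other, as in Mcm5 and Mcm6, or with a neighbouring CCAAT or GC box. The median G and C content of the windows was 61.7% in members and 61% in detected genes.

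**Figure D1:**
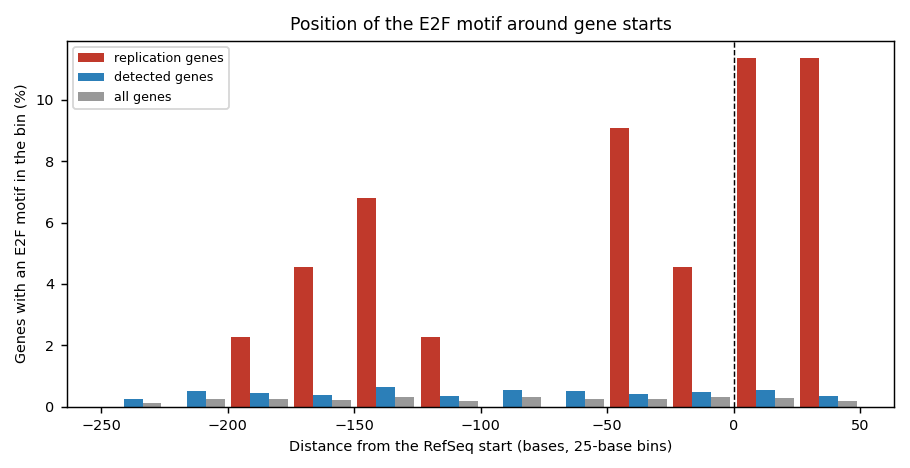
Share of genes (y axis, %) with an E2F motif whose first base falls in each 25-base bin around the RefSeq start (x axis, distance in bases), for the 44 replication genes with an entry, the 8997 detected genes and all 27025 genes. Replication genes reach 11.4% in each of the 2 bins after the start, while the detected genes stay at 0.634% or below in every bin.

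Members with and without the motif overlapped in level. The 18 with a motif ranged from 7.67 to 209 CPM with a median of 68.7 CPM. The 26 without ranged from 13.1 to 376 CPM with a median of 58.5 CPM. Per kb of coding transcript the medians stood in the other order, at 23.7 CPM per kb with a motif and 24.6 without. The 3 most abundant members, Rrm2, Rrm1 and Pcna, had no match in their windows, which says only that these letters are not there.

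All 52 members reached 1 CPM in each library, which counts as detected here, and 51 of them at 10 CPM or more. Their median was 60.2 CPM, against 35.3 CPM over the 11692 genes detected in all. On the log2(CPM + 1) scale the members' median was 5.94 ± 0.04 and that of all detected genes 5.18 ± 0.01, and 41 of the 52 lay above the median detected gene. In cultured cells a larger share of cells in S phase and more RNA per cell cannot be told apart from these levels.

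The members spanned a wide range, from 7.67 CPM for E2f2 to 376 CPM for Rrm2. At the top, the small subunit gene of ribonucleotide reductase Rrm2 stood at 388 CPM in replicate 1 and 364 CPM in replicate 2, and the large subunit gene Rrm1 at 337 and 323 CPM. The sliding clamp gene Pcna stood at 296.6 and 295.9 CPM. These 3 genes took 21.4% of the CPM on the list, and the 10 most abundant members, which include all 6 genes of the MCM helicase, took 49.2%. At the bottom, 6 members lay under 20 CPM: E2f2, Orc1, Rpa3, Gins3, Gins1 and Gins2.

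**Figure D2:**
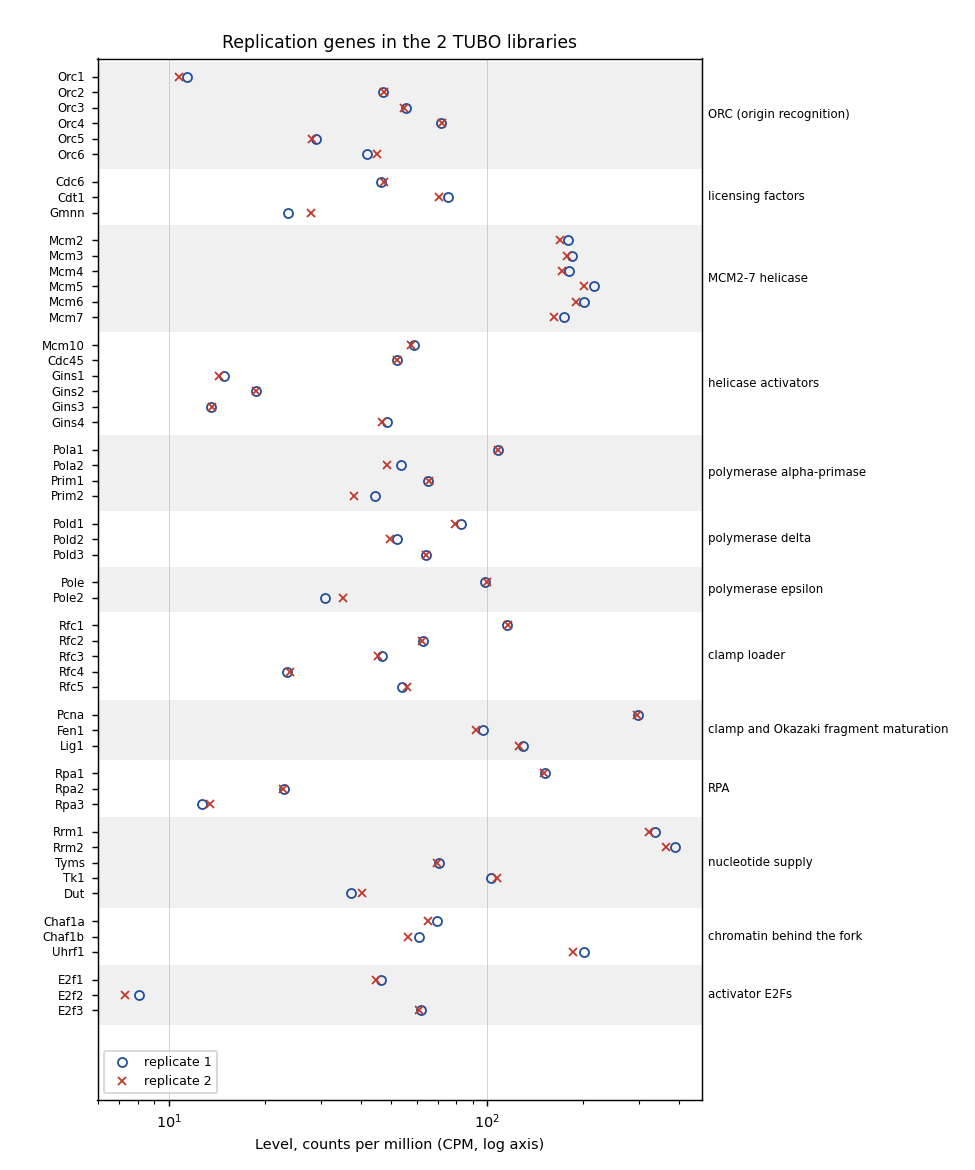
Level of each of the 52 members in CPM (x axis, log scale) in replicate 1 (circles) and replicate 2 (crosses), grouped by role (labels at the right). The 6 MCM helicase genes sit within 162 to 216 CPM in both libraries, whereas the ORC genes extend from 10.8 to 72.3 CPM.

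Levels of different genes can be compared only per length, and 2 definitions of length are given for most genes. The main planned one counts every exonic base of a gene in GENCODE M21. The other, added after seeing the data, uses the transcript with the longest coding sequence in the GENCODE basic set. The longest transcript of each gene was planned as an alternative length and is given only where it is named. The exonic length exceeded that of the coding transcript by a median factor of 1.57 over the members, and by 3.61 in Tk1. Per kb of exonic length the members' median was 14.2 CPM per kb, against 7.48 over detected genes. Per kb of coding transcript it was 23.1, against 12.7.

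**Figure D3:**
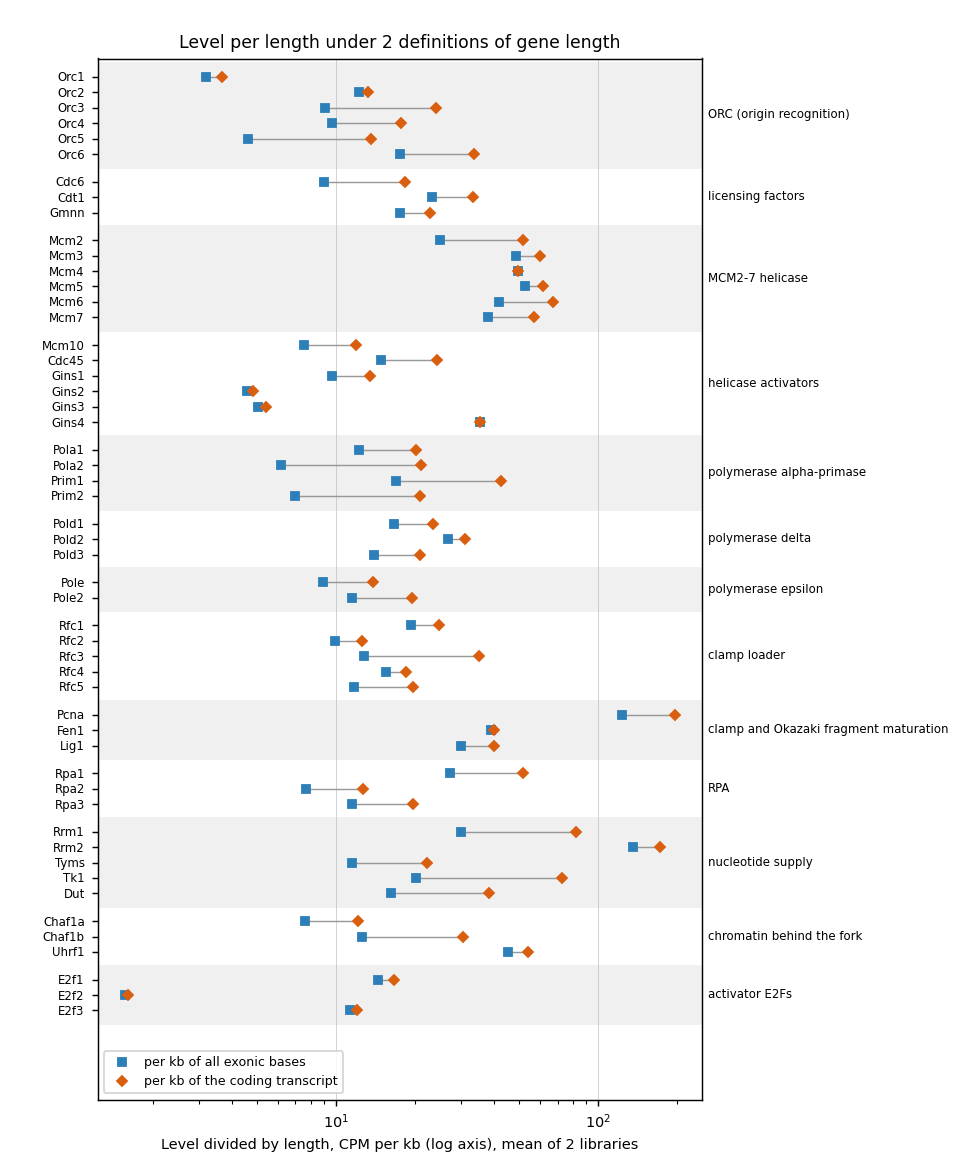
Level per length of each member (x axis, CPM per kb, log scale, mean of 2 libraries) by all exonic bases (squares) and by the coding transcript (diamonds), joined by a line. The MCM helicase genes draw together on the coding transcript (49.2 to 67.3 CPM per kb), and the GINS genes stay apart on both.

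The origin recognition genes were uneven, with Orc1 lowest on both lengths. Orc1 (chromosome 4, 108579423 to 108614833, GRCm38), an ATPase subunit gene of the complex, stood at 11.4 and 10.8 CPM in replicates 1 and 2. Per kb of exonic length Orc1 reached 3.18 ± 0.13 CPM per kb, Orc5, the next lowest, 4.63 ± 0.11 and Orc6, the small subunit gene, 17.6 ± 0.94. Per kb of coding transcript Orc1 reached 3.67 ± 0.15 and the next lowest, Orc2, 13.2 ± 0.04. The ratio of the highest to the lowest ORC gene was 5.53 ± 0.52 per exonic kb and 9.20 ± 0.86 per kb of coding transcript. Orc1, Orc2, Orc4 and Orc6 share exonic bases with genes of the opposite strand. Of the exonic bases of Orc2 29.8% are also exonic in Nif3l1, and of those of Orc1 10.8% in Gm12743, which has no row in the table. Of those of Orc6, the highest ORC gene on both lengths, 6.93% are also exonic in Vps35 (295 ± 5.32 CPM). The part of these overlaps in the ORC levels was not tested.

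The licensing factors stood at middle levels. Cdt1, which brings the MCM helicase to origins, stood at 75.5 and 70.5 CPM, and Cdc6, the ATPase that acts with it, at 46.3 and 47.6 CPM. Per exonic kb Cdt1 was 2.59 ± 0.18 times as abundant as Cdc6, and 1.82 ± 0.12 times per kb of coding transcript. Geminin (Gmnn), the inhibitor of Cdt1, stood at 23.6 CPM in replicate 1 and 27.9 CPM in replicate 2. Per exonic kb the ratio of Gmnn to Cdt1 was 0.67 in replicate 1 and 0.85 in replicate 2, so the Cdt1 transcript was the more abundant in both libraries.

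The 6 genes of the MCM helicase were high and the most even of the groups of 3 or more members in CPM and per kb of coding transcript. On the planned lengths, exonic and longest transcript, they were not the most even. Mcm2 stood at 179 and 169 CPM, Mcm3 at 184 and 179, Mcm4 at 181 and 172, Mcm5 at 216 and 201, Mcm6 at 201 and 191 and Mcm7 at 174 and 162 CPM in replicates 1 and 2. All 6 fell between the percentiles 89.8 and 92.8 of detected genes in CPM. The highest was 1.24 times the lowest in CPM and 1.37 times per kb of coding transcript. Per exonic kb the ratio was 2.09 ± 0.02, where Mcm2 was lowest at 24.99 ± 1.03 CPM per kb. On that length polymerase delta (1.92 ± 0.07) and the clamp loader (1.94 ± 0.02) were more even. Per kb of the longest transcript the ratio was 1.37 ± 0.02, against 1.25 ± 0.14 for polymerase alpha and primase. The exonic length of Mcm2, 6956 bases, is 2.06 times that of its coding transcript, while Mcm4 has 3589 bases by both definitions.

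By median, the helicase genes stood above the ORC and GINS genes, though per exonic kb Gins4 (35.3 CPM per kb) stood above Mcm2 (24.99). The median of Mcm2 to Mcm7 was 4.83 ± 0.14 times that of Orc1 to Orc6 per exonic kb, and 3.73 ± 0.11 times per kb of coding transcript. It was 6.14 ± 0.10 times the median of the 4 GINS genes, and 6.17 ± 0.13 times per kb of coding transcript. These ratios were above 1 in both libraries. Ratios between genes carry no p-value, since the smallest that an exact sign test gives for 2 libraries is 0.5.

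Unlike the MCM genes, the helicase activators were uneven. Cdc45 stood at 52.2 CPM in both libraries and Mcm10, which acts as the helicase is activated, at 59.0 and 57.5 CPM. Within GINS, Gins4 stood at 48.4 and 46.8 CPM, Gins1 at 14.9 and 14.4, Gins2 at 18.8 in both and Gins3 at 13.6 and 13.7 CPM. Per exonic kb Gins4 reached 35.3 ± 0.82 CPM per kb, while Gins1, Gins3 and Gins2 lay at 9.67 ± 0.22, 5.03 ± 0.04 and 4.59 ± 0.01. Of the exonic bases of Gins2, 67.3% are also exonic on the opposite strand in Gse1, which stood at 50.2 ± 0.16 CPM. How the counting treated strand is not stated, and the part of this overlap in the level of Gins2 was not tested.

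The polymerase alpha and primase genes came close to even per kb of coding transcript, apart from Prim1. The catalytic gene Pola1 stood at 108 CPM in both libraries, its partner Pola2 at 53.7 and 48.5 CPM, the primase genes Prim1 at 65.2 and 65.6 CPM and Prim2 at 44.4 and 38.2 CPM. Per kb of coding transcript Pola1 (20.2 ± 0.04), Pola2 (21.1 ± 1.5) and Prim2 (20.9 ± 2.21) did not differ beyond their spread, and Prim1 stood above them at 42.6 ± 0.19 CPM per kb. Per exonic kb Pola1 was 2.00 ± 0.15 times as abundant as Pola2, a ratio that was 0.96 ± 0.07 on the coding transcript. Per kb of the longest transcript it was 1.14 ± 0.08, and the ratio of Prim1 to Prim2 was 1.25 ± 0.14. On that length the highest of the 4 genes was 1.25 ± 0.14 times the lowest, and Prim1 no longer stood apart.

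For the replicative polymerases, the catalytic genes Pold1 (82.8 and 79.0 CPM) and Pole (98.4 and 100.1 CPM) had more CPM than Pold2 (52.2 and 49.6) and Pole2 (31.0 and 35.4), but not per length. Per exonic kb the ratio of Pold1 to Pold2 was 0.62 and that of Pole to Pole2 0.78 ± 0.06. The delta genes Pold1, Pold2 and Pold3 spanned 20.9 to 30.9 CPM per kb of coding transcript, and Pole and Pole2 13.9 and 19.4. Pold2 was the highest of the 5 on both lengths.

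The clamp loader genes were modest and the clamp itself was high. Rfc1, the large subunit gene, stood at 115.8 and 116.6 CPM, and the small subunit genes Rfc2 to Rfc5 between 23.6 and 62.8 CPM. Per exonic kb the 5 genes lay within a factor of 1.94 ± 0.02. Per kb of coding transcript the factor was 2.79 ± 0.05, with Rfc3 highest at 34.9 ± 0.82 CPM per kb. Some exonic bases of Rfc2, Rfc4 and Rfc5 are also exonic on the opposite strand. They are 15.1% of Rfc2 in Lat2 (0.56 ± 0.04 CPM), 12.65% of Rfc4 in Eif4a2 (318 ± 14.6 CPM) and 10.7% of Rfc5 in Wsb2 (134 ± 1.21 CPM). The part of these overlaps in their levels was not tested. Pcna (chromosome 2, 132249162 to 132253314) reached 123 ± 0.23 CPM per exonic kb and 195 ± 0.36 per kb of coding transcript, above all 5 loader genes on both. Of its 50-base windows 19.1% also occur in other transcripts, among them the pseudogene Pcna-ps2, which had 13 and 19 counts.

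The order of the Okazaki fragment enzymes depended on the length used. The flap nuclease gene Fen1 (97.2 and 92.1 CPM) and the ligase gene Lig1 (129.6 and 125.6 CPM) reached 39.9 ± 1.52 and 40.2 ± 0.89 CPM per kb of coding transcript, within their spread. Per exonic kb Fen1 stood above Lig1 in both libraries, at 39.1 ± 1.49 against 29.9 ± 0.66 CPM per kb. Pcna was 3.16 ± 0.11 times as abundant as Fen1 per exonic kb, and 4.89 ± 0.18 times per kb of coding transcript. An antisense gene without a row in the table, Gm10143, covers 78.8% of the exonic bases of Fen1.

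The RPA genes were uneven too. Rpa1, the large DNA-binding subunit gene, stood at 152 and 151 CPM, Rpa2 at 23.1 and 22.8 CPM and the small Rpa3 at 12.7 and 13.5 CPM. Per exonic kb Rpa2 was 0.28 times and Rpa3 0.43 ± 0.02 times as abundant as Rpa1, and per kb of coding transcript 0.25 and 0.38 ± 0.02 times.

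Among the 13 groups of members, the nucleotide genes held the widest range per exonic kb, but not per kb of coding transcript. The ratio of highest to lowest was 11.8 ± 0.34 per exonic kb. Per kb of coding transcript it was 7.74 ± 0.22, below 10.3 ± 0.45 for the activator E2F genes. Rrm2 stood at 135.7 ± 5.90 CPM per exonic kb and Tyms, the thymidylate synthase gene, at 11.5 ± 0.17. Rrm1 was 0.22 times as abundant as Rrm2 per exonic kb and 0.48 ± 0.01 times per kb of coding transcript. The exonic length of Rrm1 is 11012 bases and its coding transcript has 3997. The S-phase kinase gene Tk1 (103 and 107 CPM) exceeded its mitochondrial counterpart Tk2 by 3.39 ± 0.30 times per exonic kb and 8.23 ± 0.72 times per kb of coding transcript. Rrm2 exceeded Rrm2b, the p53-induced small subunit gene, by 42.8 ± 1.08 times per exonic kb and 27.0 ± 0.68 times per kb of coding transcript. The dUTPase gene Dut stood at 37.4 and 40.5 CPM.

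Among the chromatin genes, Uhrf1, which brings the maintenance methyltransferase to new DNA, was highest at 201 and 186 CPM. The CAF-1 subunit genes Chaf1a and Chaf1b stood at 69.7 and 65.2 CPM and at 61.0 and 56.6 CPM. Per exonic kb Chaf1a was 0.61 times as abundant as Chaf1b, and per kb of coding transcript 0.40 times. Of the exonic bases of Chaf1a, 52.5% are also exonic on the opposite strand in Ubxn6 (48.7 ± 1.95 CPM), and the part of this in its level was not tested.

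The activator E2F genes differed widely from each other. E2f1 stood at 46.5 and 44.8 CPM, E2f3 at 61.9 and 61.2 CPM and E2f2 at 8.05 and 7.28 CPM. Per exonic kb E2f1 was 9.23 ± 0.40 times as abundant as E2f2 and 1.28 ± 0.02 times as abundant as E2f3. E2f3 was 0.54 ± 0.01 times as abundant per exonic kb as E2f4, an E2F of the repressive kind.

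Beyond the members, a list of 56 other replication genes was examined, and all 56 were detected, with a median of 42.6 CPM. Small polymerase subunit genes stood at 13.6 ± 0.56 (Pold4), 35.3 ± 0.35 (Pole4) and 57.0 ± 0.35 CPM (Pole3). Their order depended on the length used. Pole3 stood above Pole4 per exonic kb (28.0 against 14.1 CPM per kb) and below it per kb of coding transcript (31.6 against 54.5). In the origin firing list Topbp1, a scaffold of checkpoint and initiation, and Dbf4, the activator of the Cdc7 kinase, were highest per exonic kb (21.3 and 9.84 CPM per kb). Recql4 (3.32) and Cdc7 itself (7.12) were lowest. Among the fork protection genes Tipin (20.8) and Timeless (6.89) were highest and Claspin (Clspn, 4.23) and Wdhd1 (6.39) lowest.

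The other MCM genes varied more than the helicase itself. The MCM-binding protein gene Mcmbp stood at 144 ± 9.61 CPM, near the helicase genes, while Mcm8 (24.8 ± 1.34 CPM), Mcm9 (15.7 ± 1.00 CPM) and Mcmdc2 (3.67 ± 0.85 CPM) lay well below. In the topology list Top2a led at 634 ± 12.9 CPM, followed per exonic kb by Top1, and Rnaseh2b and Top2b were lowest (4.104 and 5.96 CPM per exonic kb). Of the chaperone and methylation list the FACT gene Ssrp1 (55.8 CPM per exonic kb) and Dnmt1 (52.6) were highest and Nasp (5.47) and Asf1a (6.67) lowest.

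In the alternative clamp loader list Chtf8 (101 ± 3.26 CPM) had no unique match in the annotation and so no length. Atad5, Chtf18, Rad17 and Dscc1 lay between 2.06 and 6.65 CPM per exonic kb. Of the remaining nucleotide genes Dtymk (29.1) and Dctpp1 (25.8) were highest and Rrm2b (3.17) and Samhd1 (5.69) lowest. Among the E2F partners the dimer gene Tfdp1 (43.3) and E2f4 (20.9) were highest and E2f7 (2.98) and Tfdp2 (3.07) lowest. These ranks within the other lists hold per exonic kb, and some change per kb of coding transcript. On that length Tfdp2 stood at 25.1 CPM per kb, close to E2f4 at 25.7, and Rnaseh2b at 17.2, above Top2b at 8.43.

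Several members share a start region with another gene. Within 1000 bases of the start of 21 members a gene starts on the opposite strand, protein-coding and in the table for 13 of them. Prkdc, the DNA repair kinase gene, starts 466 bases from Mcm4 and stood at 38.0 and 45.1 CPM, against 181 and 172 CPM for Mcm4. Its log2 ratio of replicate 2 to replicate 1 was 0.24 (adjusted p = 0.000263, exact binomial test described next), opposite in sign to that of Mcm4. The other called neighbour was Afmid beside Tk1, at 2.33 and 3.69 CPM (log2 ratio 0.66, adjusted p = 0.0188, same exact test), with the same sign as Tk1 (0.06, not called). Pxmp2 starts 120 bases from Pole and stood at 2.83 and 3.24 CPM, against 98.4 and 100.1 CPM for Pole. Prpf38a starts 87 bases from Orc1 and stood at 25.4 and 26.6 CPM, against 11.4 and 10.8 CPM for Orc1. Rars2, which starts 13 bases from Orc3, stood at 35.1 and 33.1 CPM, and Vps35 beside Orc6 at 291 and 299 CPM.

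Between the libraries 5 of the 6 MCM genes (all but Mcm3) were called lower in replicate 2 on counting error alone. Their differences were -5.10% to -6.94%. None of the 6 MCM genes was called by edgeR's exact test (unadjusted p from 0.128 to 0.516), whose dispersion came from these same libraries. An exact binomial test compared the 2 libraries, set against counting error alone and adjusted by Benjamini-Hochberg over 13336 genes. It called 12 of the 52 members at an adjusted p under 0.05, against 8.13% of all genes tested. Of the 12 members 10 were lower in replicate 2, where 4.46% of all genes were called lower, and 2 were higher, where 3.67% were called higher. The test finds small differences more readily in abundant genes. The members had a median of 2094 counts per library and all genes tested 954. Of genes at 10 CPM or more 11.2% were called (6.46% lower and 4.75% higher in replicate 2), a class that holds 51 members and all 12 that were called. With total counts 12 members were called, 10 lower and 2 higher, against 9.71% of all genes (6.91% lower and 2.8% higher). With DESeq2 size factors 12 were called, 10 lower and 2 higher, against 8.62% of all genes (5.37% lower and 3.25% higher).

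All 6 MCM genes had a log2 ratio of replicate 2 to replicate 1 below 0, from -0.10 for Mcm5 to -0.04 for Mcm3, and 5 were called. Of all genes tested 50.7% lay below 0 and 4.46% were called lower (6.46% at 10 CPM or more). The share called among genes as abundant as the MCM genes was not counted. Mcm5 had a log2 ratio of -0.10 (95% exact binomial interval -0.15 to -0.06, adjusted p = 0.000573 by the exact binomial test). Mcm7 had -0.10 (-0.15 to -0.05, adjusted p = 0.00554, same exact test) and Mcm2 -0.08 (-0.14 to -0.03, adjusted p = 0.0218, same exact test). Mcm6 and Mcm4 were called as well (adjusted p = 0.0311 and 0.0476, same exact test), and without a filter on low counts Mcm4 was not (adjusted p = 0.064, range over the scalings and filters tried 0.00836 to 0.064). Mcm3, which was not called, had an interval of -0.10 to 0.01.

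The other members called lower in replicate 2 were Rrm1 and Rrm2, Uhrf1, and the polymerase alpha and primase genes Pola2 and Prim2. Rrm2 had a log2 ratio of -0.09 (adjusted p = 4e-05, exact binomial test) and Rrm1 of -0.06. Uhrf1 had -0.11 (adjusted p = 0.000184, same exact test), Prim2 -0.22 (adjusted p = 0.00199, same exact test) and Pola2 -0.15. Higher in replicate 2 were Gmnn, at 0.24 (interval 0.11 to 0.38, adjusted p = 0.0089, same exact test), and Pole2, at 0.19 (0.07 to 0.31, adjusted p = 0.0245, same exact test). Pcna was not called, with an interval of -0.04 to 0.04.

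**Figure D4:**
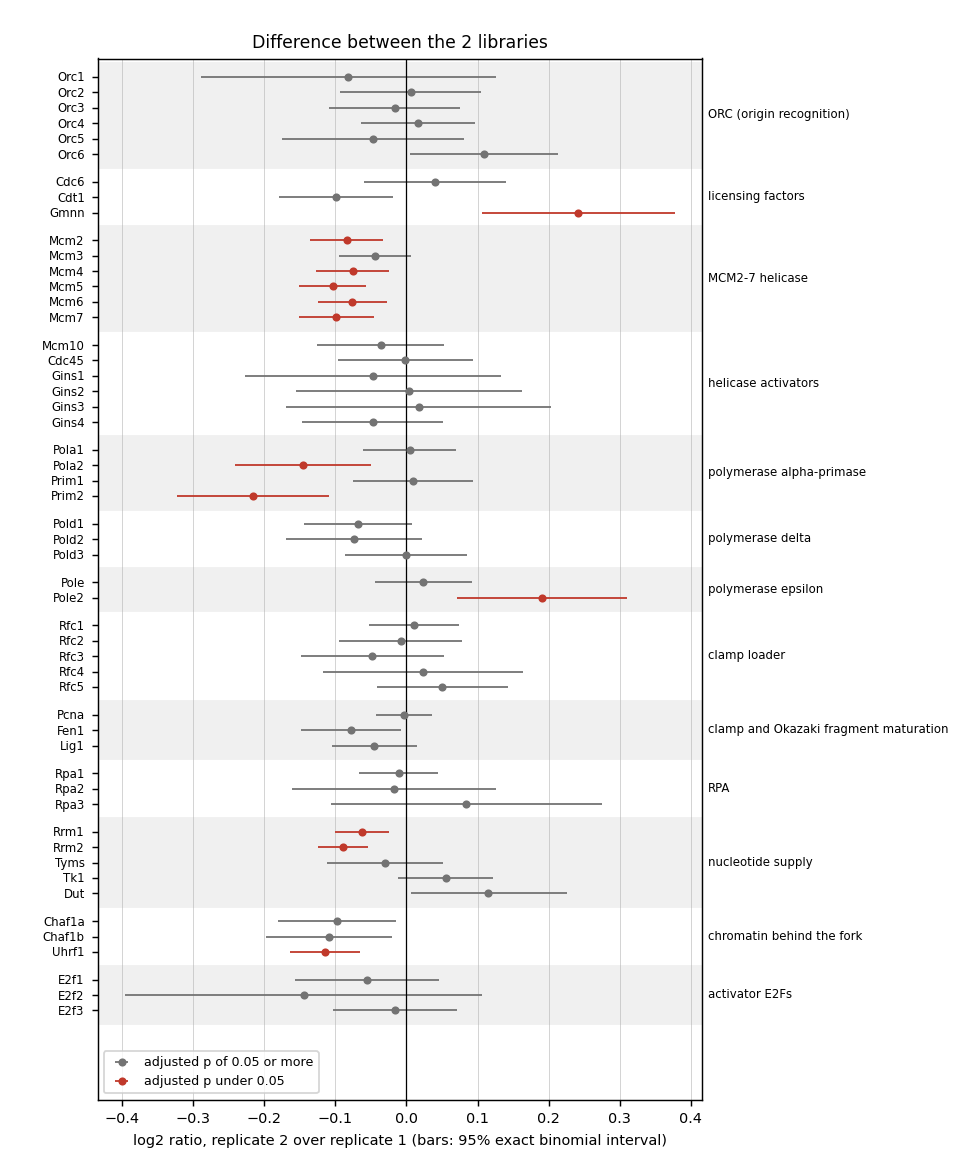
log2 ratio of replicate 2 to replicate 1 (x axis) for each of the 52 members, with 95% exact binomial intervals as bars, which cover counting error only. The 12 members with an adjusted p under 0.05 are in red, and the MCM helicase genes have ratios from -0.10 to -0.04, with an interval that reaches past 0 for Mcm3.

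When edgeR's exact test allowed for the common dispersion of the same libraries, a coefficient of variation of 3.12%, it called none of the 52 members, against 0.142% of all genes. The difference between these 2 libraries itself set that dispersion. A difference of a size usual in the table could therefore hardly be called, and the absence of calls decides nothing about the members. In that test 3 members (Gmnn, Prim2 and Pole2) had an unadjusted p under 0.05, as did 5.52% of all genes tested. The median log2 ratio of the members was -0.03, and that of all genes tested was -0.0016. It was lower than 0 for 35 of the 52 members (67.3%) and for 50.7% of all genes tested. With total counts in place of TMM factors 40 members were lower and with DESeq2 size factors 37. The median coefficient of variation between the libraries was 2.42% over the members and 2.57% over all genes at 10 CPM or more.

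Of the 56 other replication genes 8 were called by the exact binomial test, 7 of them lower in replicate 2, against 8.13% of all genes called and 4.46% called lower (11.2% and 6.46% at 10 CPM or more). The 7 were Mcmbp (log2 ratio -0.14), Topbp1 (-0.08), Ssrp1 (-0.09), Dck (-0.13) and the E2F partner genes Tfdp1 (-0.09), Tfdp2 (-0.15) and Lin54 (-0.14). Top2a was higher in replicate 2 (0.04), and was not called with total counts or with DESeq2 size factors. With total counts Top1 (adjusted p = 0.0293, exact binomial test) and Dna2 (adjusted p = 0.0471, same exact test) were called instead, both lower in replicate 2, which made 9. Without the filter on low counts Tfdp2 was not called (adjusted p = 0.0649, same exact test). edgeR's exact test called none of the 8.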

How the data were processed

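RNA of 2 TUBO libraries was extracted on columns, treated with DNase and made into stranded mRNA libraries, per the labels' protocols. The deposited values are raw counts per gene symbol. The submitters' processing notes name the build mm10, featureCounts, STAR 2.7.9a, Cell Ranger 3.0.0, R 4.1.1 and FastQC 0.11.9, without roles. No source used here gives the annotation release or the strand setting. The members and lists were chosen with earlier results of these data known.

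Counts were scaled with TMM factors (edgeR 4.0.16 in R 4.3.3) to CPM. Detected means 1 CPM in both libraries. Lengths came from GENCODE M21 (GRCm38), where 98.1% of the table's symbols had 1 match. Between libraries, an exact binomial test on counts was adjusted by Benjamini-Hochberg over the 13336 genes that passed edgeR's filter, with a threshold of 0.05. It covers counting error and compares these libraries only. Alternatives were total counts, DESeq2 1.42.0 size factors, no filter, edgeR's exact test, other lengths and a pseudocount of 5. The scripts were tested on simulated data. All members were named. Of each other list the 2 highest and 2 lowest per exonic kb (all, in lists of up to 5) and called genes were named.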

Additional observations from a re-analysis of the deposited data

How the results depend on the processing

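At 10 CPM in place of 1 CPM, 51 of the 52 members were detected (all but E2f2). Without the filter on low counts 10 members were called, and Mcm4 and Pola2 were not. The share of all genes called without the filter was not counted, so these 10 have no background beside them. The members' median level (5.94 on the log2(CPM + 1) scale) was 6.03 with a pseudocount of 5 CPM, 3.93 per exonic kb and 4.60 per kb of coding transcript, and 5.91 to 5.96 with either library left out. The median spread within groups (3.84 per exonic kb) was 3.78 in CPM and 4.25 per kb of coding transcript. It was 3.85 per kb of the longest transcript, and 3.80 to 3.87 with either library left out. In CPM the ratios of Chaf1a to Chaf1b (1.15), Pole to Pole2 (3.005), Pold1 to Pold2 (1.59), E2f1 to E2f3 (0.742) and E2f3 to E2f4 (1.20) reversed, since CPM takes no account of length. The ratio of Pola1 to Pola2 had a mean of 0.962 on the coding transcript, where it was 0.912 in replicate 1 and 1.012 in replicate 2 and so could not be told from 1. edgeR's exact test, which adds a dispersion taken from these same libraries to counting error, called 0 members, 0 lower members and 0 of the other replication genes. The members' median log2 ratio (-0.034) was -0.049 with total counts and -0.039 with DESeq2 size factors. The share of members with an E2F motif was 13.6% in the 100 bases before the start and 15.9% for TTTCGCGC alone, against 1.81% and 0.822% of detected genes. No paired analysis was possible because there is only 1 group. Members with under 1000 counts per library, such as E2f2, carry the widest intervals.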

Other observations

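Among members that missed the adjusted threshold between the libraries, Chaf1a, Chaf1b, Cdt1 and Fen1 had 95% intervals that lay below 0, and Orc6 and Dut had intervals above 0. Chaf1a and Chaf1b had log2 ratios of replicate 2 to replicate 1 of -0.10 and -0.11, beside -0.11 for Uhrf1. Cdt1 had -0.10, while its inhibitor Gmnn had 0.24. Fen1 had -0.08, Orc6 0.11 and Dut 0.12. The share of all genes tested with such an unadjusted interval was not counted, so these members have no background beside them. Of the 18 members with an E2F motif 14 were lower in replicate 2, with a median log2 ratio of -0.05. Of the 26 without one 16 were lower, with a median of -0.01. Of all genes tested 50.7% were lower in replicate 2. These genes were singled out after their values were seen, and the difference between both sets was not tested.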
